A study of Rattus norvegicus with 8 samples.

Results

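The chemokines described here are 10 genes, Cxcl1, Cxcl2, Cxcl3, Cxcl10, Cxcl12, Cxcl16, Ccl2, Ccl5, Ccl7 and Ccl20, of the 34912 gene names on the array. They were chosen by name from the CXC and CC chemokine families, with the differences between irradiated and non-irradiated cells already known, so those differences are given as a description, and nothing is read from the counts of a fit over all probes that are printed beside them. The array carried 14 probes for them, out of 45598 rat probes. The cells were primary osteoblast-like cells released by enzymes from the calvariae (skull bones) of Wistar rats aged 3 to 5 days. Non-irradiated cells (4 arrays) were compared with cells collected 6 h after a 60 s exposure to an Er:YAG laser, with a fluence of 3.3 J/cm2 (4 arrays), and the replicate numbers 1 to 4 run through both groups. By the names of the scanner files, each rat gave 1 non-irradiated and 1 irradiated array, which carry its replicate number. Such cultures are a mixture enriched for osteoblasts rather than a pure cell type.

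Chemokines are small secreted proteins that attract cells along a concentration gradient by binding G-protein-coupled receptors, and the CXC and CC families are named after the spacing of their first conserved cysteines. In bone, cells of the osteoblast lineage secrete both inducible chemokines, whose genes are switched on through NF-κB by cytokines such as interleukin-1 and tumor necrosis factor, and the constitutive chemokine Cxcl12, which holds hematopoietic cells in the marrow. Cxcl1, Cxcl2 and Cxcl3 attract neutrophils through Cxcr2, Cxcl10 attracts T cells through Cxcr3, Ccl2 and Ccl7 attract monocytes through Ccr2, Ccl5 attracts T cells and monocytes, and Ccl20 acts through Ccr6. Cxcl16, the ligand of Cxcr6, is made as a membrane-bound protein.

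In the coordinates of the scanner files (rat build rn4), the probes of Cxcl2 (chr14:18677165-18677224), Cxcl1 (chr14:18690468-18690527) and Cxcl3 (chr14:18785776-18785835 and chr14:18786864-18786923) lay in a row on the minus strand. The gap was 13.2 kb between Cxcl2 and Cxcl1 and 95.2 kb between Cxcl1 and Cxcl3. Cxcl10 (chr14:17267994-17268053) lay 1410 kb from Cxcl2 on the plus strand. Ccl2 (chr10:70257919-70257978) and Ccl7 (chr10:70268674-70268733) were neighbours at 10.7 kb, and Ccl5 (chr10:71605854-71605913) lay 1340 kb further on. Cxcl16 (chr10:57296159-57296218) lay 13000 kb from Ccl2, and Ccl20 (chr9:82443354-82443414) and Cxcl12 (chr4:153508808-153516264) were the only members on their chromosomes. Exon and coding annotation of this build was not used here.

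The promoters of the inducible members are shown because these genes are known targets of NF-κB, and a motif of the kind that it binds was looked for near their start. The RefSeq promoter table (build GRCr8, 250 bases before to 50 after the start) matched 7 of the 10 members, with Cxcl3, Ccl2 and Ccl5 not matched. The motif searched was GGGA, any 4 bases, then CC, on both strands. It was present in 5 of the 7 promoters, and in 19.3% of all 33469 promoters of that length. In the following stretches, printed on the strand of the gene, capitals mark the bases of a match.
Cxcl1 (chr14:17479385-17479434, minus strand, bases -113 to -64): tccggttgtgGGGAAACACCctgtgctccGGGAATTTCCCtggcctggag
Cxcl2 (chr14:17467309-17467338, minus strand, bases -83 to -54): ctaagctcagGGGATTTCCCtgatccctgg
Cxcl10 (chr14:15988869-15988958, plus strand, bases -197 to -108): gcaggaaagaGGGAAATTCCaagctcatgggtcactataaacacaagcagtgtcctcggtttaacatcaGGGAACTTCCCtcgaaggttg
Ccl20 (chr9:91836944-91837088, plus strand, bases -215 to -71): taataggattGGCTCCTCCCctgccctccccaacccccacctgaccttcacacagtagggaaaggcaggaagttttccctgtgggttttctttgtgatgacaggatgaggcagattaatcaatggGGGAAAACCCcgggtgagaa
Ccl7 (chr10:67514026-67514055, plus strand, bases -69 to -40): tcattccaaaGGAAGATCCCgccctaactg

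Cxcl1 held 3 matches, of which the pair at -84 and -83 overlap on opposite strands. Cxcl10 likewise held 3 matches, with an overlapping pair at -128 and -127. The match of Cxcl2 at -73 reads on both strands, Ccl20 had 1 match at -205 and another at -90, and Ccl7 had 1 at -59. No match was found in the windows of Cxcl12 and Cxcl16, the constitutive chemokine and the membrane-bound one. A match is a description of the letters and not evidence of binding.

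**Figure D1:**
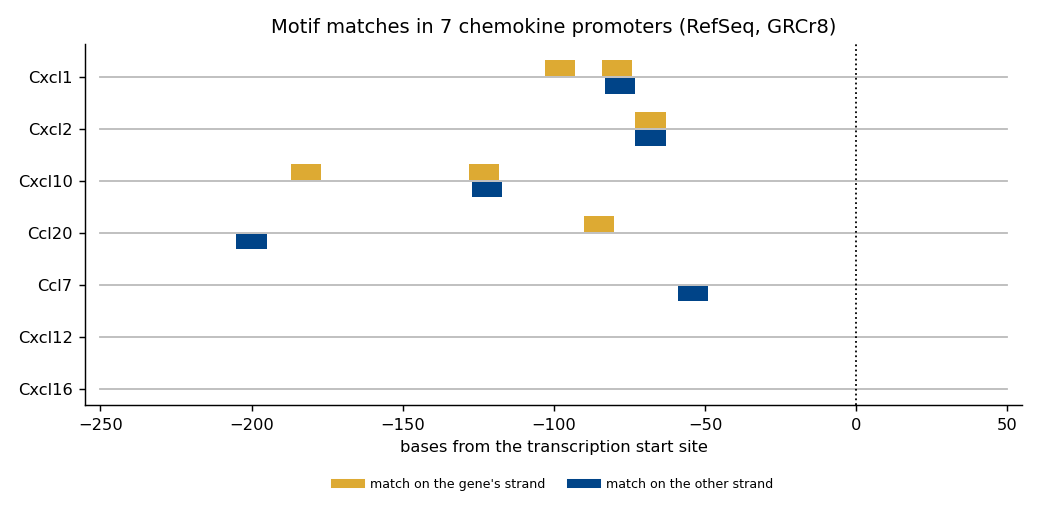
Positions of the motif (GGGA, any 4 bases, CC) in the 7 matched chemokine promoters, as bases from the transcription start site, with matches on the gene's strand in yellow above each line and matches on the other strand in blue below it. The upper 5 genes have a match between -205 and -50, and the lines of Cxcl12 and Cxcl16 are empty.

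Some probe sequences are shown because they decide what was measured. The Cxcl3 probe A_44_P363116 contains the sense primer of the quantitative PCR for this gene. The primer lies at bases 9 to 28 and is in capitals in the first 30 bases of the probe. The other Cxcl3 probe, A_44_P1112487, lies 1028 bases downstream of it on the minus strand and holds neither primer. The 2 Ccl20 probes overlap by 59 bases and differ there at a single base, A10G (counted from 1 at the 5′ end of A_64_P157743, whose base is given first), which is in capitals. The probes of Cxcl2 and of Cxcl12 (A_64_P135474) both hold 2 overlapping copies of ATTTA, a pentamer known from the ends of short-lived messengers, and the Cxcl12 probe also holds the polyadenylation signal AATAAA, both in capitals. ATTTA was found in 2 of the 14 chemokine probes and in 7.79% of all rat probes.
Cxcl3 A_44_P363116, bases 1 to 30: tctcaaggATGGTCAAGAAGTTTGTCTCaa
Ccl20 A_64_P157743, bases 2 to 31: gcttagtaAaaggttcaatattatgtttaa
Ccl20 A_44_P1160109, bases 1 to 30: gcttagtaGaaggttcaatattatgtttaa
Cxcl2 A_64_P140437, bases 31 to 60: tgaagtggggacATTTATTTAttcatgtac
Cxcl12 A_64_P135474, bases 25 to 54: ggaATTTATTTAcctgaAATAAAatctact

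Detection was judged from the scanner's mark for a spot well above background. Of the 14 probes, 9 were above background on all 8 arrays, which covers Cxcl1, Cxcl10, Cxcl12, Cxcl16, Ccl2, Ccl5 and Ccl20. The Cxcl2 probe was not above background on any array, so neither a level nor a fold is given for it. The Cxcl3 probes each missed 1 non-irradiated array, and Ccl7 and the third Cxcl12 probe (A_44_P1156527) each missed 1 array in both groups. A probe entered the fit when it was above background on all 4 arrays of a group, which 11 probes of 8 genes did, among 26391 probes in all. Passing in this way favours a probe that is high in 1 group. Levels below are log2 of the quantile-normalized processed intensity, listed for replicates 1, 2, 3 and 4. Levels of different probes cannot be compared. Median processed intensity was 56.2 to 72.6 on the non-irradiated and 56.8 to 84.8 on the irradiated arrays, and no spot was saturated. The 8 arrays shared 1 slide and 1 scan, with non-irradiated arrays in columns 1 and 3 and irradiated arrays in columns 2 and 4, so irradiation and position on the slide cannot be told apart. Fewer cells of a type and less RNA per cell cannot be told apart either.

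The neutrophil-attracting chemokines Cxcl1 and Cxcl3 had the widest differences among the members. The Cxcl1 level (A_42_P473398, 10 spots per array) was 8.58, 8.12, 7.75 and 7.93 in non-irradiated cells. It was 9.26, 8.83, 8.40 and 8.93 in irradiated cells. Every irradiated array was above the non-irradiated array of its rat, while the groups overlapped, since the highest non-irradiated array (replicate 1) exceeded the lowest irradiated array (replicate 3). The group means were 8.09 ± 0.36 and 8.85 ± 0.35 (SD, n = 4), and the fitted log2 difference was 0.76 with a standard error of 0.12, or 1.69-fold. The differences within a rat ran from 0.65 to 1.00.

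Cxcl3 was measured by 2 probes whose differences were unequal in size. At A_44_P1112487 the level was 4.47, 4.54, 3.98 and 4.55 in non-irradiated cells. In irradiated cells it was 6.21, 5.63, 5.92 and 5.66. All irradiated arrays were above all non-irradiated arrays. This held for 1 tested chemokine probe and for 0.267% of all probes, from which nothing is read, since the probe entered the fit through the irradiated group alone. The group means were 4.38 ± 0.27 and 5.86 ± 0.27 (SD, n = 4), and the fitted log2 difference was 1.47 with a standard error of 0.19, or 2.78-fold. Non-irradiated replicate 3 was not above background there.

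At A_44_P363116, the probe with the primer sequence, the Cxcl3 level was 4.20, 3.70, 4.16 and 4.19 in non-irradiated cells. It was 4.60, 3.91, 4.66 and 4.78 in irradiated cells. Each irradiated array was again above its own control, and the groups overlapped through irradiated replicate 2. The fitted log2 difference was 0.42 with a standard error of 0.12, or 1.34-fold, and non-irradiated replicate 4 was not above background. A_44_P363116 lay near the lowest level at which the arrays marked a probe as above background, 3.29 to 4.04. At A_44_P1112487 the non-irradiated arrays lay near that level, while the irradiated arrays, at 5.63 to 6.21, lay above it. The size of the difference at both probes therefore rested on how background was handled. With spot means taken without background correction the log2 differences were 0.61 and 0.12, and with normexp they were 0.52 and 0.10, for A_44_P1112487 and A_44_P363116 respectively. In the log2 values deposited by the authors the difference at A_44_P1112487 was 0.86. Cxcl1, a brighter probe, stayed between 0.63 and 0.80 in every alternative tried.

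**Figure D2:**
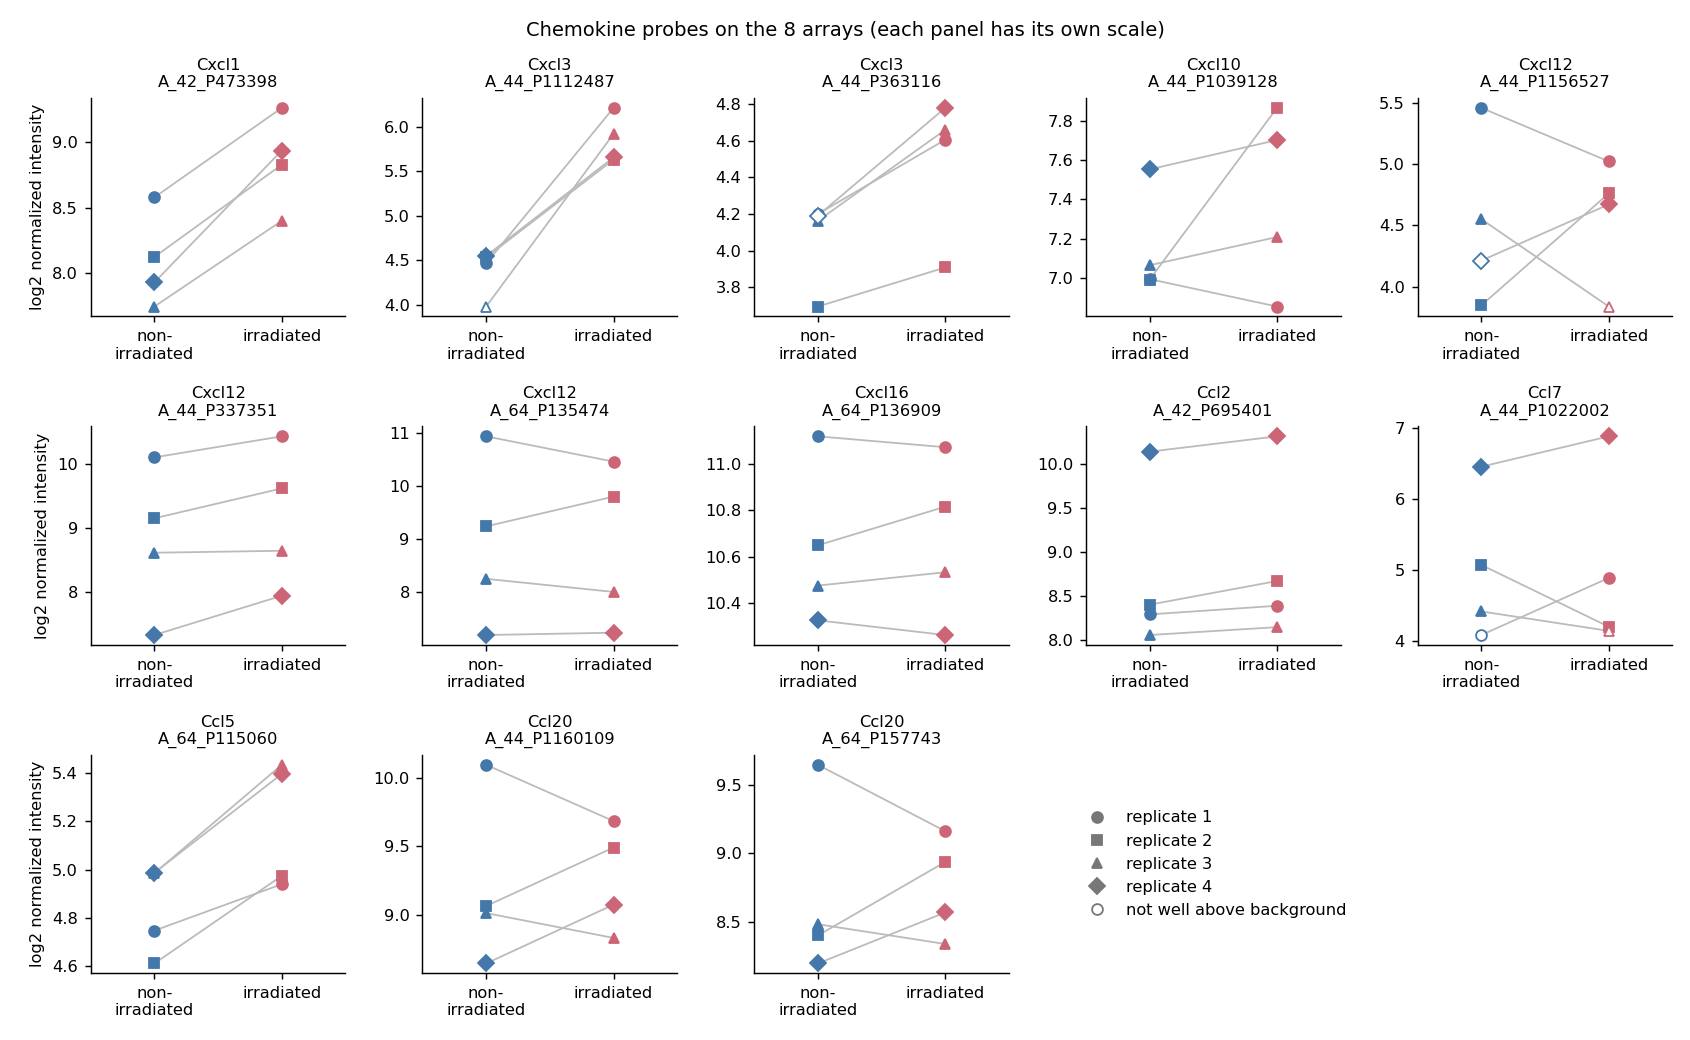
Level of each chemokine probe on the 8 arrays, as log2 normalized intensity, with a separate axis for each panel and grey lines joining the 2 arrays of a rat; marker shapes give the replicate number, and open markers were not well above background. Cxcl1, both Cxcl3 probes, Ccl5, Ccl2 and Cxcl12 A_44_P337351 have 4 rising lines, while the other probes have lines in both directions.

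Cxcl10, the interferon-inducible ligand of Cxcr3, had levels of 6.99, 6.99, 7.06 and 7.55 in non-irradiated cells. The irradiated arrays were at 6.85, 7.86, 7.21 and 7.70. The groups overlapped widely, and the irradiated array was the lower of the pair for replicate 1. The fitted log2 difference was 0.26 with a standard error of 0.19, and it was 0.05 without replicate 2, whose rat had a difference of 0.87.

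Among the CC chemokines, Ccl5 lay low on the scale, at 4.75, 4.61, 4.99 and 4.99 in non-irradiated cells. It was 4.94, 4.98, 5.43 and 5.40 in irradiated cells. Each irradiated array was above its own control, but the groups overlapped, with irradiated replicates 1 and 2 no higher than the upper non-irradiated arrays. The fitted log2 difference was 0.35 with a standard error of 0.11, or 1.28-fold. This difference was 0.15 in the deposited values, 0.14 without background correction and 0.10 with normexp.

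The monocyte attractant Ccl2 (10 spots per array) had levels of 8.29, 8.40, 8.06 and 10.14 in non-irradiated cells. The irradiated cells were at 8.39, 8.67, 8.15 and 10.31. The arrays of replicate 4 stood apart in both groups, and each irradiated array was slightly above its own control. The fitted log2 difference was 0.16 with a standard error of 0.11. Its neighbour Ccl7, which was not tested, had levels of 4.08, 5.07, 4.41 and 6.45 in non-irradiated cells. In irradiated cells it was at 4.88, 4.19, 4.14 and 6.88, with non-irradiated replicate 1 and irradiated replicate 3 not above background. Replicate 4 was again the highest in both groups, and the irradiated array was the higher in 2 of 4 rats.

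The 2 Ccl20 probes, which share 58 identical bases, gave like patterns. At A_44_P1160109 the level was 10.10, 9.06, 9.01 and 8.64 in non-irradiated cells. In irradiated cells it was 9.69, 9.49, 8.83 and 9.07. The irradiated array was the higher in replicates 2 and 4 and the lower in replicates 1 and 3, at both probes. At A_64_P157743 the level was 9.65, 8.40, 8.48 and 8.19 in non-irradiated cells and 9.16, 8.94, 8.34 and 8.57 in irradiated cells. The fitted log2 difference was 0.07 at either probe, with standard errors of 0.18 and 0.20, and it turned negative when replicate 2 or replicate 4 was left out. The differences within a rat ran from -0.41 to 0.43 at the first and from -0.49 to 0.54 at the second.

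Cxcl12, the constitutive ligand of Cxcr4, was measured by 3 probes that did not give the same difference. The array assigns A_44_P337351 and A_44_P1156527 to the same transcript and A_64_P135474 to another. Their differences therefore need not describe the same messenger. At A_44_P337351 the level was 10.10, 9.15, 8.61 and 7.32 in non-irradiated cells. It was 10.43, 9.61, 8.64 and 7.94 in irradiated cells. Every irradiated array was above its own control, by 0.03 to 0.61, within groups that spread far more widely. The fitted log2 difference was 0.36 with a standard error of 0.14.

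At A_64_P135474, a probe 5860 bases away, the Cxcl12 level was 10.94, 9.24, 8.25 and 7.19 in non-irradiated cells. In irradiated cells it was 10.46, 9.80, 8.0 and 7.23. The irradiated array was the higher in 2 of 4 rats, and the fitted log2 difference was -0.03 with a standard error of 0.19. The third probe, A_44_P1156527, spans 2559 bases of the genome and so crosses an intron. It was not tested, and had levels of 5.46, 3.85, 4.55 and 4.21 in non-irradiated and 5.02, 4.76, 3.84 and 4.67 in irradiated cells, without a common direction.

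Cxcl16 was at 11.12, 10.65, 10.47 and 10.32 in non-irradiated cells. In irradiated cells it was at 11.07, 10.82, 10.53 and 10.26. The pairs nearly coincided, and the fitted log2 difference was 0.03 with a standard error of 0.11.

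**Figure D3:**
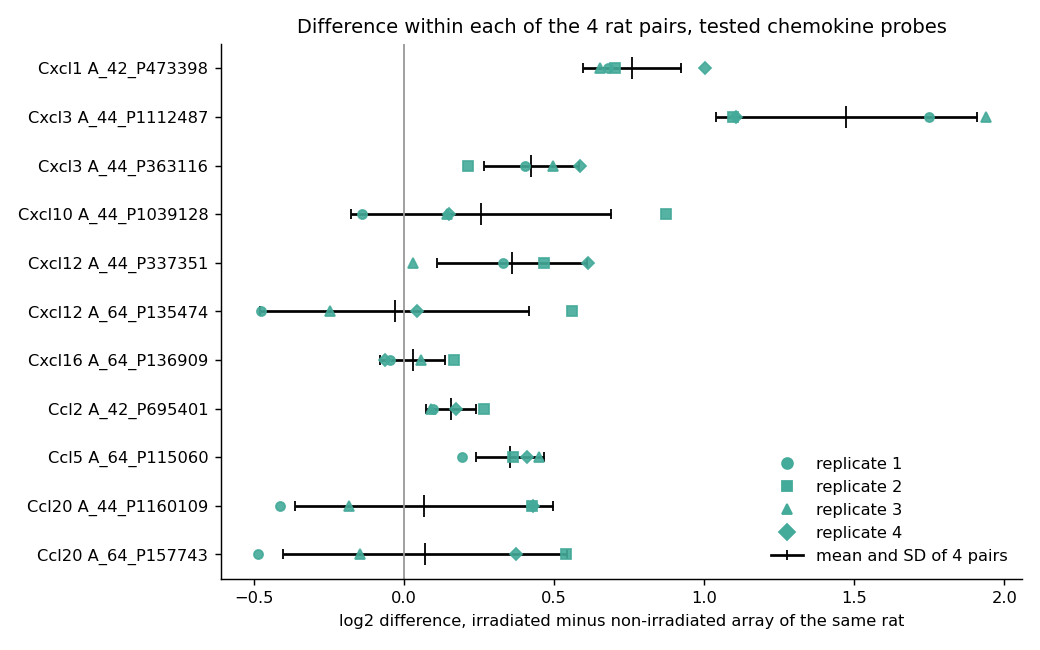
Log2 difference between the irradiated and the non-irradiated array of each rat for the 11 tested chemokine probes, with symbols for the 4 replicate numbers and the black tick and bar for their mean and SD. Cxcl1 and Cxcl3 A_44_P1112487 lie wholly to the right of 0.6, and both Ccl20 probes, Cxcl10, Cxcl16 and Cxcl12 A_64_P135474 lie on both sides of 0.

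Counted over the members, 0 of the 11 tested probes passed an adjusted p of 0.1 in limma, as did 0 of all 26391 probes (0%). At an unadjusted p below 0.05, 5 chemokine probes passed, all of them higher after irradiation, namely Cxcl1, both Cxcl3 probes, Ccl5 and Cxcl12 A_44_P337351. Over all probes 670 passed at that level, of which the 374 higher ones were 1.42%. The irradiated array was the higher in 4 of 4 rats at 6 chemokine probes, the same 5 and Ccl2, against 3.57% of all probes. The median log2 difference was 0.257 over the tested chemokine probes and -0.00346 over all probes tested, and 10 of the 11 chemokine probes were higher on average, against 48.8% of all. Because the members were chosen with this contrast in view, and both Cxcl3 probes entered through the irradiated group alone, nothing is read from these counts. The 5 probes at the unadjusted level became 2 without replicate 4 and 3 without replicate 3. They were also 2 without the block, and 3 with normexp, without background correction, and with a trend and robust variance prior. Other settings tested other sets. The deposited values gave 2 of 10 chemokine probes, and averaging the probes of a gene gave 3 of 8 genes. Among probes above background on all 8 arrays 3 of 9 passed, where that filter by itself removes both Cxcl3 probes.

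The level of a gene in different rats is a measure that the choice of members did not use, and it was tested with limma's F test between replicate numbers in the same model. At an adjusted p below 0.1, 3 of the 11 chemokine probes differed between replicate numbers, covering Cxcl12 and Ccl2, against 9.18% of all probes. The Ccl2 mean of both arrays was 8.34, 8.54, 8.11 and 10.22 for replicates 1 to 4, and the highest was 4.34-fold the lowest (limma F test, adjusted p = 0.0093). In replicate 4 both arrays were above all 6 others. Ccl7, not tested, had its highest mean in the same rat, 6.66 against 4.27 to 4.63.

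Cxcl12 ran otherwise. At A_64_P135474 the means were 10.70, 9.52, 8.13 and 7.21, an 11.2-fold range (limma F test, adjusted p = 0.012), and at A_44_P337351 they were 10.26, 9.38, 8.62 and 7.63, a 6.21-fold range (adjusted p = 0.011). At both probes replicate 1 was the highest and replicate 4 the lowest, and no array of a rat overlapped those of another. The range between rats thus exceeded the difference between irradiated and non-irradiated arrays of a rat at both probes. For Cxcl1 the range between rats was 1.80-fold (adjusted p = 0.12), and for Cxcl16 it was 1.75-fold (adjusted p = 0.10, above the limit). Ccl20 ranged 2.05-fold and 2.04-fold (adjusted p = 0.15 and 0.16). Cxcl3 A_44_P363116 ranged 1.60-fold (adjusted p = 0.14), and the remaining 3 tested probes had adjusted p from 0.23 to 0.67.

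These calls depended on the rats included. Without replicate 4 only Cxcl12 A_64_P135474 was called, where 1.26% of all probes were. Without replicate 1, Ccl2 and Cxcl12 A_64_P135474 were called, where 0.569% of all probes were. Without replicate 2, 8 of the 11 were called, where 36.5% of all probes were. Replicates 1 and 2 lay in the first row of the slide and replicates 3 and 4 in the second, with the 2 arrays of a rat side by side, so the rat and the position on the slide cannot be told apart.

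**Figure D4:**
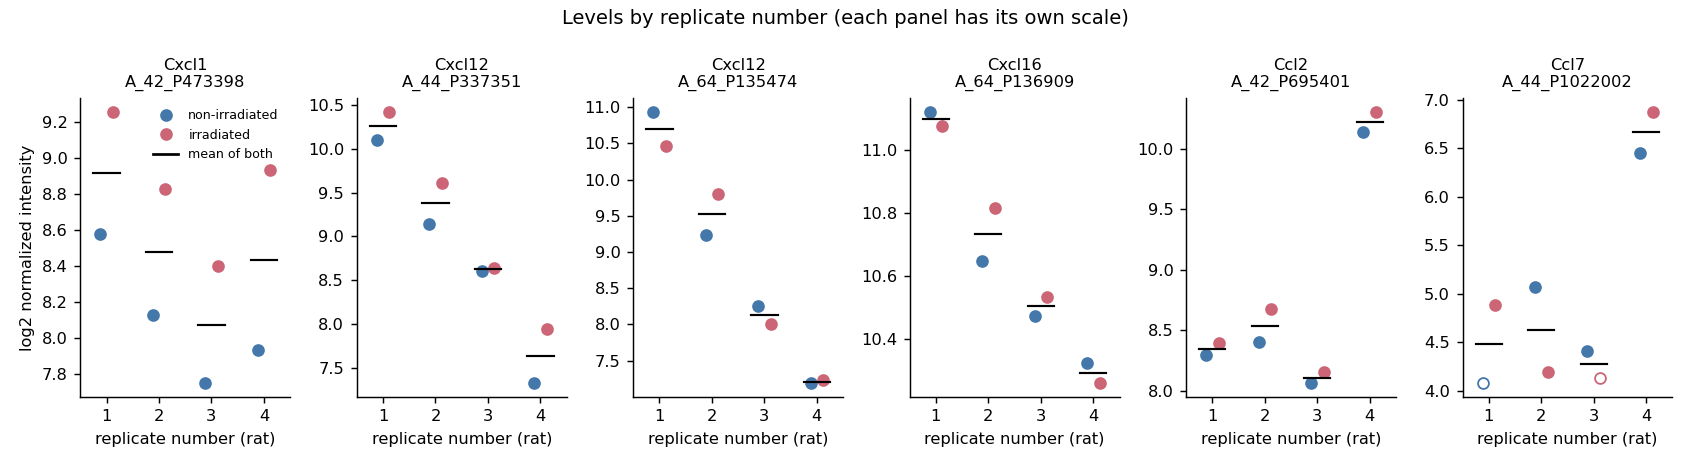
Levels of 6 chemokine probes by replicate number, as log2 normalized intensity with a separate axis for each panel; blue points are non-irradiated arrays, red points irradiated arrays, open points not well above background, and black lines the mean of both. Both Cxcl12 probes are highest in replicate 1 and lowest in replicate 4, and Ccl2 and Ccl7 are highest in replicate 4.

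The cells carried osteoblast markers, with 8 of 9 listed genes above background on all 8 arrays and Phex on 2 of 8. Of their 10 tested probes 4 differed between rats at an adjusted p below 0.1 (Alpl A_43_P11684, Bglap, Ibsp and Dmp1), against 9.18% of all probes. Each of the 4 had its lowest mean in replicate 4, where Cxcl12 was lowest and Ccl2 highest. Alpl, tissue-nonspecific alkaline phosphatase, was at 8.39 and 8.63 there and from 10.11 to 10.90 on the other 6 arrays (limma F test, adjusted p = 0.022). Its second probe, A_44_P1160313, did not pass (adjusted p = 0.18). Not every marker of the list was lowest in replicate 4, and the means of Spp1, osteopontin, were 14.55, 14.43, 14.28 and 14.65 for replicates 1 to 4 (adjusted p = 0.60).

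Markers of other cell types that calvarial cultures could hold were looked for in the same way. Of 6 endothelial genes, 5 had a probe above background on all arrays and Emcn had none on any. A second probe of Cdh5 (A_43_P14288) was not above background on any array, and a second probe of Vwf (A_64_P114913) was so on 1 irradiated array. Between rats 3 of the 5 tested probes differed, those of Kdr, Tek and Vwf, against 9.18% of all probes. Tek was highest in replicate 1, with means of 8.03, 6.10, 5.76 and 6.28 (limma F test, adjusted p = 0.028). Kdr had means of 9.32, 9.31, 7.64 and 7.24 (adjusted p = 0.034), and Vwf was highest in replicate 2, with means of 12.92, 13.81, 12.85 and 12.74 (adjusted p = 0.099). The log2 of the summed level of this list, carried by the bright Vwf probe, was 12.79 to 13.67 in non-irradiated and 12.88 to 14.15 in irradiated cells.

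Of 5 skeletal muscle genes, 4 were above background on all arrays. Myog, the muscle regulator myogenin, was highest in replicate 1 and lowest in replicate 4, like Cxcl12, with means of 7.13, 6.18, 5.75 and 5.70 (limma F test, adjusted p = 0.072). The means of Ckm, muscle creatine kinase, were 6.87, 6.48, 5.64 and 5.48 (adjusted p = 0.15), and Acta1 and Des did not have this order. The summed level of the list was 7.84 to 8.94 in non-irradiated and 7.80 to 8.55 in irradiated cells.

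Leukocytes also make chemokines. Of 12 macrophage and leukocyte genes, 6 had a probe above background on all arrays, Ptprc was so on 1 array, and Cd163 and Mrc1 on none. Other probes of Itgam (A_43_P15993), Aif1 (A_44_P421534) and Lyz2 (A_44_P1154697) were not above background on any array. Between rats 1 of the 6 tested probes passed, against 9.18% of all probes. It was Lyz2 (A_64_P025286), with means of 7.83, 6.06, 5.85 and 4.85 (limma F test, adjusted p = 0.020). Aif1, with means of 6.13, 5.75, 5.38 and 5.11, had the same order (adjusted p = 0.13). Cd14, at 9.65, 9.67, 10.04 and 10.15 (adjusted p = 0.53), did not, nor did Spi1, at 7.30, 8.97, 7.33 and 6.10 (adjusted p = 0.11). The log2 of the summed level of this list, to which Cd14 gave the most, was 10.71 to 11 in non-irradiated and 10.79 to 11.03 in irradiated cells. Of 6 neutrophil genes only Fpr1 was above background on all arrays, S100a8 and Elane were on none, and the summed level was 6.14 to 6.63 in non-irradiated and 6.25 to 6.76 in irradiated cells. The part of these cell types in the chemokine levels was not tested.

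Of 17 chemokine receptor genes, some of which bind none of the members, 9 were not above background on any array, among them Cxcr2, the receptor of Cxcl1 and Cxcl3, its relative Cxcr1, and Cxcr6, the receptor of Cxcl16. Cxcr4, the receptor of Cxcl12, was above background on 2 of 8 arrays, and Ccr2, the receptor of Ccl2 and Ccl7, on 3 of 8. Cxcr3, the receptor of Cxcl10, was above background on 5 of 8 arrays, and so was a probe of Ccr6, the receptor of Ccl20 (A_44_P1100439, on 1 non-irradiated and 4 irradiated arrays). Ccr9, Cx3cr1 and Cxcr5, which bind other chemokines, had a probe above background on all arrays, while a second probe of Ccr9 (A_44_P411936) and of Cxcr5 (A_64_P119981) was not so on any. Receptor probes passing an adjusted p of 0.1 in limma between irradiated and non-irradiated cells numbered 0 of 4 tested, and 0 passed an unadjusted p of 0.05. Their median log2 difference was 0.213, and the 4 probes ran from 0.153 to 0.246. The Ccr6 probe among them entered the fit through the irradiated group alone. At each probe the irradiated array was the higher in 3 of 4 rats. The differences within a rat ran from -0.79 to 1.14 at Ccr9 A_64_P119901, so nothing is read from the common sign.

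The atypical receptors, which bind chemokines without G-protein signalling, were better detected, with 3 of 5 genes above background on all arrays. Ackr1 was not above background on any array. Of the Ackr2 probes, A_44_P1108685 was above background on 2 arrays and A_64_P001204 on 1. Ackr3, which takes up Cxcl12, was at 8.15, 7.93, 8.13 and 8.06 in non-irradiated cells. It was at 7.68, 7.54, 8.01 and 7.90 in irradiated cells. Each irradiated array was below its own control, with a fitted log2 difference of -0.29 (limma, unadjusted p = 0.054, adjusted p = 1.00). Ackr4, which takes up Ccl19 and Ccl21, was at 9.67 and 9.83 in replicate 4 and from 10.37 to 11.85 elsewhere (A_44_P1095075, F test between replicate numbers, adjusted p = 0.039). Its other probe, A_44_P1366711, was dimmer, was below background in non-irradiated replicate 4, and did not pass (same F test, adjusted p = 0.37). Of 4 tested probes of these receptors, 0 passed an adjusted p of 0.1 between irradiated and non-irradiated cells in limma, 0 passed an unadjusted p of 0.05, and the median log2 difference was -0.049.

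Of 26 other chemokines, 9 had a probe above background on all arrays and 6 had none on any, among them Ccl3, Ccl4 and Cxcl6. Between irradiated and non-irradiated cells 0 of 18 tested probes of 13 genes passed an adjusted p of 0.1 in limma, and 0 passed an unadjusted p of 0.05. Their median log2 difference was 0.00504, from -0.303 (Ccl21) to 0.85 (Ccl25, whose non-irradiated replicate 4 was at 1.58, below background). Between replicate numbers 5 of these 18 probes, of the 4 genes Ccl9, Ccl17, Cxcl9 and Cxcl14, passed, against 9.18% of all probes. Cxcl14, a chemokine of epithelia and connective tissue, was lowest in replicates 1 and 4 at A_44_P247286, with levels from 6.52 to 6.93, against 7.70 to 8.19 in replicates 2 and 3 (limma F test, adjusted p = 0.022). This order differed from that of Cxcl12.

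Of the listed cytokines that induce chemokines, the messengers of Il1a, Il1b, Il6, Il17a and Ifng were not above background on any array, and 1 of the 2 Tnf probes was so on 1 array. Ifnb1 was above background on 1 non-irradiated and 2 irradiated arrays, and was not tested. The cytokine receptors Il1r1, Tnfrsf1a, Tnfrsf1b and Il17ra, and Tlr2 and Tlr4, were above background on all arrays. In this list 0 of 8 tested probes passed an adjusted p of 0.1 in limma between irradiated and non-irradiated cells, 0 passed an unadjusted p of 0.05, and the median log2 difference was -0.00122. In the NF-κB route, from the kinase subunits to the inhibitors, 13 of 14 genes had a probe above background on all arrays. Of its 18 tested probes 0 passed an adjusted p of 0.1 and 1 passed an unadjusted p of 0.05, a Relb probe (A_44_P1157930, log2 difference 0.44) that was below background in non-irradiated replicate 2. The other Relb probes were at 0.17, 0.33 and -0.005. The median log2 difference of this list was 0.0628. Nfkbia, an inhibitor and rapid target of NF-κB, was at 9.74, 9.79, 9.82 and 9.57 in non-irradiated cells and at 9.74, 9.58, 9.69 and 9.57 in irradiated cells.

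Over the 8 arrays, the chemokine probe whose pattern was most like that of Cxcl1 was Cxcl3 A_44_P1112487, with a Pearson correlation of 0.83, against 0.47 for the other Cxcl3 probe and 0.08 to 0.59 for the remaining 8. Outside the members, the 5 most alike were LOC102547499 (0.94), Nfkbid, an NF-κB inhibitor family gene (0.938), and the transcripts ENSRNOT00000059185 (0.933), XM_346150 (0.923) and ENSRNOT00000061631 (0.899). Nfkbid was at 9.06, 9.01, 8.88 and 8.95 in non-irradiated and 9.25, 9.13, 8.95 and 9.25 in irradiated cells, a log2 difference of 0.17. These correlations are descriptions over arrays that share the 4 rats and the irradiation.

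**Figure D5:**
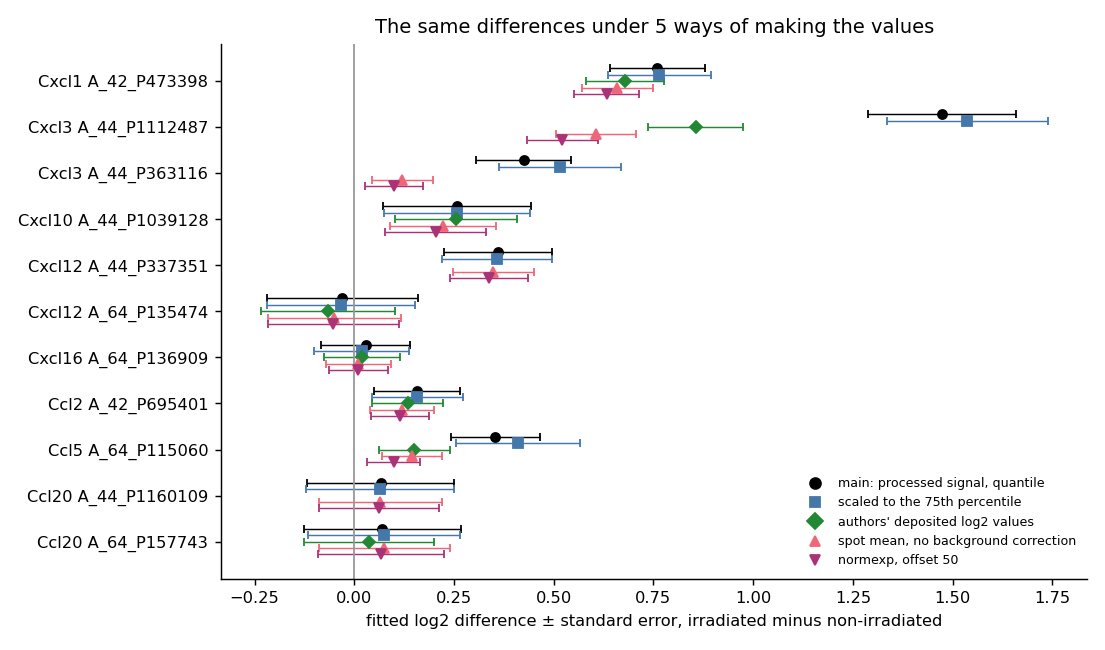
Fitted log2 difference with its standard error, irradiated minus non-irradiated, for the 11 tested chemokine probes under 5 ways of making the values, including the deposited log2 values where they hold the probe. Cxcl1 stays near 0.7 throughout, while both Cxcl3 probes and Ccl5 shrink when background is left in or an offset is added.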

How the data were processed

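Total RNA was labelled with Cy3 and hybridised to 1-color Agilent arrays, 1 RNA per array. The authors deposited spot intensity values from Feature Extraction 11.0.1.1, background-subtracted and detrended within the array, and also log2 values that they had quantile normalized. Here the processed intensity was quantile normalized over 58717 rat spots and transformed to log2, outlying spots were left out and the spots of a probe averaged. Probes of a gene were kept apart, and gene names are those of the array. Differences were fitted with limma 3.58.1 in R 4.3.3 (lmFit and eBayes, two-sided, Benjamini-Hochberg over all probes), blocking on the rat that the scanner file names give for each replicate number. Deviations from the group means correlated within numbers 1 to 4 at 0.608, 0.0542, 0.571 and 0.749 across probes, against at most 0.439 between numbers. The value within number 2 was thus below the highest between numbers, and the pairing of number 2 rests on the file names alone. The fit was tested on simulated data. The members, gene lists and comparisons were chosen with earlier results of these data known. All member probes, the 5 listed gene groups, cell markers and the 5 probes most like Cxcl1 were named, except 1 gene that is not reported here. Alternatives covered scaling, background correction, dim probes, outlying spots, deposited values, variance prior, averaged probes, the block and each rat left out. The 4 arrays per group limit the precision.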

Additional observations from a re-analysis of the deposited data

Results flagged for a closer look

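In 26 groups of 4 arrays (13 chemokine probes in each condition, Cxcl2 left out), 4 held an array whose distance from its nearest neighbour was, as a share of the group's range, over Dixon's critical value, or 15.4% of the groups, where chance flags about 5%. For Ccl2, non-irradiated replicate 4 was at 10.14 and the other 3 at 8.06 to 8.40. For Cxcl10, non-irradiated replicate 4 was at 7.55, above 6.99 to 7.06. For Cxcl3 A_44_P1112487, non-irradiated replicate 3 was at 3.98, below 4.47 to 4.55 and not above background. For Cxcl3 A_44_P363116, non-irradiated replicate 2 was at 3.70, below 4.16 to 4.20. The probes share arrays, so these groups are not independent.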

How the results depend on the processing

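Between irradiated and non-irradiated cells, 0 probes passed an adjusted p of 0.1 in limma under every alternative tried, chemokines included. Without the replicate block 0 were called, and 2 chemokine probes and 246 of all probes had an unadjusted p below 0.05; with the replicate as a random block these were 0, 4 and 694. Of 149 chemokine log2 differences under the alternatives, 8 moved by more than the SD between pairs, and 7 changed sign (Ccl20, Cxcl16 and Cxcl12 A_64_P135474, when a replicate was left out). Part of the 149 could not move, since changing the filter on dim probes, the block or the variance prior leaves a fitted difference as it is. The 8 lay at dim probes: Cxcl3 A_44_P1112487 was at 0.86 in the deposited values, 0.61 without background correction and 0.52 with normexp, Cxcl3 A_44_P363116 at 0.12 and 0.10 with the last 2, and Ccl5 at 0.15, 0.14 and 0.10. Without correction or with an added offset, background stays in both values of a difference. Between replicate numbers, 3 chemokine probes and 2421 of 26371 probes in all were called. The counts were 5 and 3744 without background correction, and 5 and 3634 with normexp. With no filter on dim probes, 3 chemokine probes and 618 of 45560 in all were called. The deposited values held another set of 10 chemokine probes, of which 6 were called, and 3675 of 24029 in all. Those 6 included Ccl7 and Cxcl12 A_44_P1156527, which the main fit did not test, and Cxcl12 A_44_P337351 was not in that set. Leaving out 1 rat gave 1 to 8 chemokine probes and 150 to 9625 in all. In the fit with probes of a gene averaged, single chemokine probes had no value. Dim probes limit the reading of Cxcl3, Ccl5 and Ccl7, and Cxcl2 gave no signal above background.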
